A study of Mus musculus with 24 samples.

Results

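The genes described here are *Trp53*, which encodes the transcription factor p53, and 9 genes that p53 is known to activate, namely *Mdm2*, *Cdkn1a*, *Ccng1*, *Trp53inp1*, *Bbc3*, *Bax*, *Gdf15*, *Phlda3* and *Eda2r*. These 10 genes of the 49315 in the count table were chosen by symbol from a look at their levels in all 8 treatment groups, so their levels and fold changes are given as a description without a test. RNA was sequenced from MS03 cells, an immortalized murine Schwann cell line that came from an Nf2 flox/flox mouse and lost *Nf2* through infection with Cre, so that every group, the control included, is Nf2-/- and no Nf2-competent cells stand beside it. Cells were treated for 24 hours with DMSO, with the FAK kinase inhibitors defactinib, VS-4718, GSK2256098 or IN10018 (ifebemtinib) at 1 µM, with PROTAC FAK degrader 1 (PROTAC-3) at 1 µM, or with the PROTACs GSK215 or BSJ-04-0146 at 0.1 µM. Each group held 3 libraries, 24 in all. The 3 libraries are called biological replicates, but nothing states that they came from separate cultures, so errors and P values measure the spread between these libraries.

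p53 is held low in unstressed cells by the ubiquitin ligase Mdm2, whose own gene p53 activates, and a rise in p53 protein after DNA damage or other stress switches on genes of cell cycle arrest, DNA repair and cell death. Focal adhesion kinase (FAK, encoded by *Ptk2*) is best known at integrin contacts, but FAK in the nucleus is known to bind both p53 and Mdm2 and to promote the turnover of p53. A PROTAC joins a ligand of its target to a ligand of a ubiquitin ligase, so that the target protein is degraded rather than only inhibited. p53 is controlled mainly as a protein, and RNA counts show neither its amount nor whether the line carries a *Trp53* mutation.

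Library totals ran from 14472462 to 27449516 counts, and the highest total among the PROTAC libraries, 21588406, lay below the lowest of the others, 21654444. Of the genes in the table, 16070 passed the filter on low counts, among them the 10 genes described here. *Ptk2* RNA differed from DMSO by a log2 fold change between -0.29 and 0.03, a measure that does not report on FAK protein. With PROTAC FAK degrader 1 its value became 0.12 when libraries were scaled by their totals alone. Of 14 Schwann cell markers, 13 passed the filter and 10 had a mean above 1 CPM (the usual scale of counts relative to library size, the sizes here adjusted by TMM, the trimmed mean of M values), and their summed level was 141 to 144 CPM with DMSO, 131 to 139 CPM with PROTAC FAK degrader 1, 409 to 422 CPM with GSK215, 387 to 409.8 CPM with BSJ-04-0146, 229.6 to 249.8 CPM with VS-4718 and 147 to 188 CPM with the other 3 compounds. The fibroblast markers *Dcn*, *Lum* and *Thy1* were under 0.1 CPM, while the 6 markers together, *Col1a1* included, summed to 1732 to 1776 CPM with DMSO, 994 to 1008 CPM with PROTAC FAK degrader 1 and 1334 to 1824 CPM with the other 6 compounds. The 5 macrophage markers summed to 3.71 to 4.08 CPM with DMSO, 11.2 to 12.0 CPM with PROTAC FAK degrader 1, 7.84 to 9.34 CPM with BSJ-04-0146, 6.20 to 7.88 CPM with GSK215 and 3.79 to 6.17 CPM with the 4 kinase inhibitors, with *Ptprc* and *Adgre1* under 0.1 CPM. *Cd68* made up most of that sum, at 3.35 CPM with DMSO and 10.9 CPM with PROTAC FAK degrader 1, while *Csf1r* was at 0.44 and 0.29 CPM. In RNA from whole cultures, fewer cells of a kind and less RNA per cell cannot be told apart, and the part of these shifts in the results that follow was not tested.

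The promoters of 3 genes are shown because they hold, close to the start of transcription, at least 1 half-site of the kind p53 is known to bind (a pair in *Cdkn1a* alone of the 3) and because their levels differed among the compounds in unlike ways. p53 binds as a tetramer to a pair of decamer half-sites, each matching the p53 half-site consensus, and windows of 300 bases (250 before and 50 after the start, RefSeq, GRCm38.p6) were searched for it. The half-site reads the same on both strands, so that 1 search covers both. Capitals mark the half-sites. The windows are chr17:29090729-29091028 (plus strand) for *Cdkn1a*, chr10:117710709-117711008 (minus strand) for *Mdm2* and chr11:40755237-40755536 (minus strand) for *Ccng1*.
Cdkn1a: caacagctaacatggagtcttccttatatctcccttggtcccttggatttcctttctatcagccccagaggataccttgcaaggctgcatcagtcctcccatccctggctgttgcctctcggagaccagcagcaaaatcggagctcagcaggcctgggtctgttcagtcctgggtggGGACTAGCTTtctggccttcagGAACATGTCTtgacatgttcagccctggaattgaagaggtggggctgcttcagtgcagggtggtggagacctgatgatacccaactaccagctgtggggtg
Mdm2: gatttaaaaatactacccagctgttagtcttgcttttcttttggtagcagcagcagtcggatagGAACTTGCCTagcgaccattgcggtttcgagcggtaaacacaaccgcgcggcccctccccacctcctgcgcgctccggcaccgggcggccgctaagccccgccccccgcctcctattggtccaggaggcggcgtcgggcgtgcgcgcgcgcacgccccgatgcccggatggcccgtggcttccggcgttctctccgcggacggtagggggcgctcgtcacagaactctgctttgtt
Ccng1: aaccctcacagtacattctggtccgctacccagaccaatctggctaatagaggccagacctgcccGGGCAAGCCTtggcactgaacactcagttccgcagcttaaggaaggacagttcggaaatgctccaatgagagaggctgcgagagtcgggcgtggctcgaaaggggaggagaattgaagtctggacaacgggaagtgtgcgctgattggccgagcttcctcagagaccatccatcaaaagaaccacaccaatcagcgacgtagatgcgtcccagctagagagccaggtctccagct

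Promoter windows were found for 9 of the 10 genes, *Trp53inp1* having no entry. A half-site stood in 5 of these 9, the 3 shown and *Trp53* and *Bax*, against 9.55% of 27025 genes with a window and 11 of 44 further p53 targets. The *Cdkn1a* window, which belongs to the upstream of 2 annotated starts, held 2 half-sites that begin 73 and 51 bases before the start and so count as a pair (at most 13 bases between them), as did 0.07% of all genes, while the window of the downstream start held none. The single half-sites of *Mdm2* and *Ccng1* begin 186 and 185 bases before the start. The windows of *Bbc3*, *Gdf15*, *Phlda3* and *Eda2r* held none, which says only that these letters are not in these 300 bases. A match is not evidence of binding in these cells.

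*Trp53* itself (ENSMUSG00000059552, GRCm38 chr11:69580359-69591873, plus strand) was abundant and was lower than with DMSO in the PROTAC FAK degrader 1 libraries. Its levels were 293, 296 and 301 CPM in the 3 DMSO libraries and 194, 192 and 191 CPM with PROTAC FAK degrader 1, with no overlap. VS-4718 gave 338, 339.7 and 318 CPM, all above DMSO. GSK215 gave 266, 254 and 272 CPM and BSJ-04-0146 271, 271 and 271 CPM, so that both sat below DMSO by a small margin. The libraries of defactinib (271, 281 and 294 CPM), GSK2256098 (299.7, 307 and 307 CPM) and IN10018 (304, 285 and 298 CPM) overlapped those of DMSO. The log2 fold change from the edgeR model, in which 1 unit is a 2-fold difference, was -0.62 ± 0.03 (SE, n = 3 against 3) with PROTAC FAK degrader 1 and 0.16 ± 0.03 with VS-4718. For GSK215 and BSJ-04-0146 it was -0.17 ± 0.03 and -0.13 ± 0.03, values that shrank to -0.04 and -0.02 when libraries were scaled by their totals alone, a scaling that also moved the median of all genes to 0.14 and 0.13. Relative to that median the value for *Trp53* was -0.19 with GSK215 and -0.15 with BSJ-04-0146 under either scaling. The pseudogene *Trp53-ps*, which could take reads from *Trp53*, held at most 1 count in any library.

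The feedback arm consists of *Mdm2*, the ubiquitin ligase that marks p53 for destruction, and *Ccng1*, which encodes cyclin G1, a partner of the phosphatase that activates Mdm2. *Mdm2* (ENSMUSG00000020184, chr10:117688875-117710758, minus strand) read 86.5, 79.4 and 83.1 CPM with DMSO and 108, 110.3 and 106 CPM with PROTAC FAK degrader 1, a log2 fold change of 0.38 ± 0.04. The 3 BSJ-04-0146 libraries, at 91.0, 91.0 and 90.0 CPM, also sat above DMSO (0.13 ± 0.04). In the libraries of the other 5 compounds *Mdm2* lay between 76.8 and 86.9 CPM and overlapped DMSO, with log2 fold changes from -0.05 to 0.05. With GSK215 the sign of that small value turned from -0.05 to 0.07 when totals alone set the scale. *Ccng1* (ENSMUSG00000020326, chr11:40748552-40755311, minus strand) did not share this. It was at 69.3, 68.6 and 65.6 CPM with DMSO and 68.5, 65.1 and 63.9 CPM with PROTAC FAK degrader 1, which overlapped (-0.04 ± 0.04, or 0.04 with totals alone). It was lower with GSK215 (52.2, 47.5 and 52.0 CPM, -0.42 ± 0.05) and BSJ-04-0146 (55.9, 54.8 and 50.04 CPM, -0.34 ± 0.05), whose libraries all lay below DMSO, as did those of VS-4718 and GSK2256098 (-0.17 ± 0.04 and -0.18 ± 0.04). Thus *Mdm2* was higher with PROTAC FAK degrader 1 while *Ccng1* overlapped DMSO there.

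*Cdkn1a* (ENSMUSG00000023067, chr17:29090976-29100727, plus strand) encodes p21, the inhibitor of cyclin-dependent kinases through which p53 halts the cell cycle, and its libraries with every compound stood apart from DMSO, above it with 2 compounds and below it with 5. It read 15.7, 16.6 and 15.7 CPM with DMSO. PROTAC FAK degrader 1 gave 41.9, 38.4 and 39.6 CPM and IN10018 gave 28.9, 24.5 and 28.1 CPM, all above DMSO. The remaining 5 compounds lay entirely below DMSO. Defactinib gave 9.16, 10.4 and 10.4 CPM, GSK2256098 10.8, 10.9 and 9.54 CPM and VS-4718 7.28, 8.87 and 7.86 CPM. At 0.1 µM, GSK215 gave 3.74, 4.27 and 5.38 CPM and BSJ-04-0146 gave 6.72, 7.75 and 6.62 CPM. In order of level at 1 µM, PROTAC FAK degrader 1, IN10018, DMSO and GSK2256098 were each separated from the next, GSK2256098 overlapped defactinib, and VS-4718 lay below both. The log2 fold changes were 1.32 ± 0.07 for PROTAC FAK degrader 1 (2.5-fold), 0.76 ± 0.07 for IN10018, -0.62 ± 0.09 for GSK2256098, -0.68 ± 0.09 for defactinib, -1.18 ± 0.10 for BSJ-04-0146 and -1.82 ± 0.11 for GSK215 (3.53-fold lower), and *Cdkn1a* was 2.01-fold lower with VS-4718. An unnamed annotated transcript on the opposite strand covers 7.68% of the *Cdkn1a* exons and was not in the table.

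**Figure D1:**
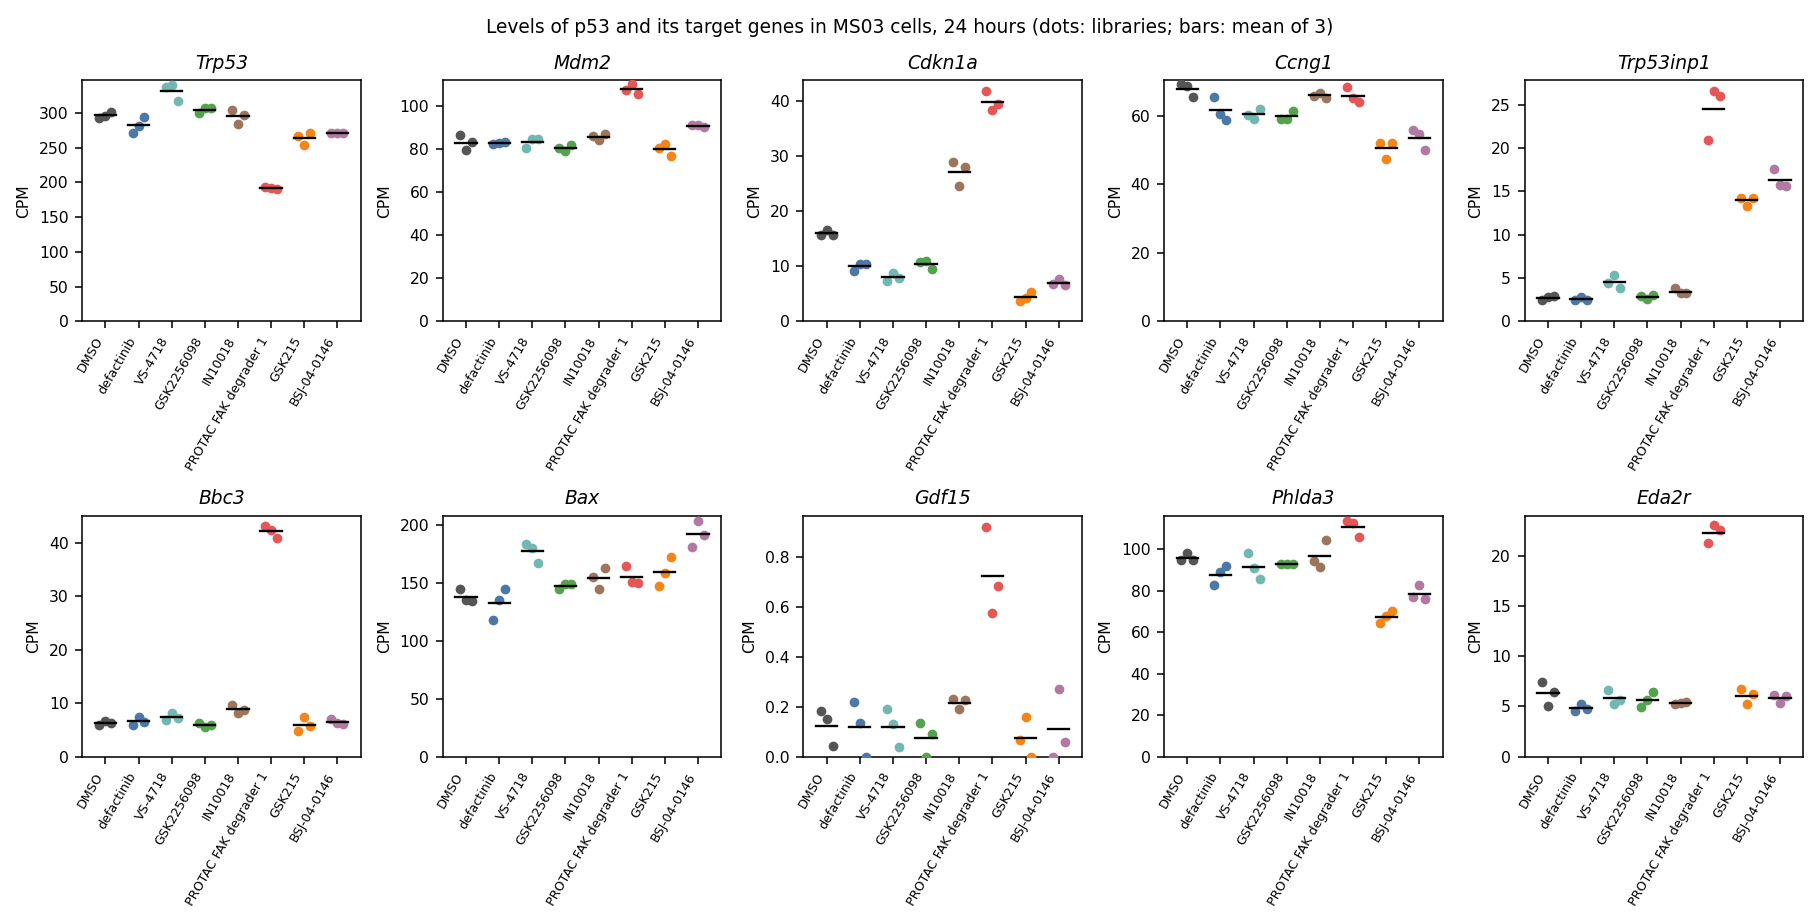
Levels (CPM, linear axes from 0) of the 10 genes in each of the 24 libraries, by treatment group; dots are libraries and bars the mean of 3. *Cdkn1a* lies above DMSO with PROTAC FAK degrader 1 and IN10018 and below it with the other 5 compounds, whereas *Bbc3* and *Eda2r* stand apart with PROTAC FAK degrader 1.

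*Trp53inp1* (ENSMUSG00000028211, chr4:11156431-11174379, plus strand) encodes a stress protein of nuclear bodies that promotes p53-dependent death and also acts in autophagy. It was low with DMSO (2.49, 2.74 and 2.93 CPM) and high with all 3 PROTACs. PROTAC FAK degrader 1 gave 20.9, 26.6 and 25.9 CPM, BSJ-04-0146 17.6, 15.8 and 15.7 CPM and GSK215 14.2, 13.4 and 14.3 CPM. None of these groups overlapped DMSO. The log2 fold changes were 3.16 ± 0.11 (8.95-fold), 2.58 ± 0.12 and 2.35 ± 0.12. Among the kinase inhibitors, VS-4718 (4.38, 5.28 and 3.87 CPM, 0.72 ± 0.14) and IN10018 (3.83, 3.22 and 3.25 CPM, 0.33 ± 0.15) lay above DMSO, and defactinib and GSK2256098 overlapped it at 2.40 to 2.98 CPM. *Trp53inp1* and *Cdkn1a* thus shared the direction with PROTAC FAK degrader 1 and IN10018 and had opposite directions with GSK215, BSJ-04-0146 and VS-4718.

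The death genes *Bbc3* and *Bax* act in sequence at mitochondria, where the BH3-only protein Puma (*Bbc3*) relieves and activates the pore former Bax. *Bbc3* (ENSMUSG00000002083, chr7:16308393-16318205, plus strand) was at 5.88, 6.62 and 6.22 CPM with DMSO and 43.1, 42.3 and 40.9 CPM with PROTAC FAK degrader 1, a log2 fold change of 2.75 ± 0.09 (6.73-fold). IN10018, at 9.69, 8.10 and 8.80 CPM, also lay above DMSO (0.50 ± 0.11), as did VS-4718 at 6.82, 8.21 and 7.22 CPM (0.24 ± 0.11). With defactinib, GSK2256098, GSK215 and BSJ-04-0146 the libraries spanned 4.86 to 7.46 CPM and overlapped DMSO. *Bax* (ENSMUSG00000003873, chr7:45461697-45466898, minus strand) followed another course. Its level ran from 135 to 145 CPM with DMSO and reached 182 to 204 CPM with BSJ-04-0146 (0.48 ± 0.05) and 168 to 184 CPM with VS-4718 (0.36 ± 0.05). The log2 fold changes with GSK215, PROTAC FAK degrader 1 and IN10018 were 0.21 ± 0.05, 0.17 ± 0.05 and 0.16 ± 0.05, with all libraries above DMSO, and those of defactinib and GSK2256098 overlapped it. An annotated gene on the same strand, *Gm45808*, covers 12.18% of the *Bax* exons and had 0 counts.

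*Eda2r* (ENSMUSG00000034457, chrX:97333840-97377216, minus strand) encodes the ectodysplasin A2 receptor, a death-domain-free member of the tumor necrosis factor receptor family. It was at 7.46, 5.04 and 6.39 CPM with DMSO and 21.3, 23.1 and 22.6 CPM with PROTAC FAK degrader 1, a log2 fold change of 1.83 ± 0.10 (3.57-fold). In the other 6 treated groups it lay between 4.54 and 6.76 CPM and overlapped DMSO, the lowest mean being that of defactinib (-0.37 ± 0.12). *Phlda3* (ENSMUSG00000041801, chr1:135766119-135769136, plus strand) encodes a pleckstrin homology domain protein that keeps the kinase AKT from the membrane. Its levels were 94.6 to 97.9 CPM with DMSO, 106 to 114 CPM with PROTAC FAK degrader 1 (0.21 ± 0.05), 64.2 to 70.1 CPM with GSK215 (-0.51 ± 0.05) and 75.9 to 82.9 CPM with BSJ-04-0146 (-0.29 ± 0.05). These 3 groups did not overlap DMSO, nor did defactinib at 82.8 to 91.7 CPM (-0.13 ± 0.05) and GSK2256098 at 92.8 CPM (-0.05 ± 0.05), while VS-4718 and IN10018 overlapped it.

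*Gdf15* (ENSMUSG00000038508, chr8:70629393-70632456, minus strand), a secreted stress cytokine of the transforming growth factor β family, was barely detected. The DMSO libraries held 4, 4 and 1 counts and those of PROTAC FAK degrader 1 20, 11 and 13 counts. Summed over 3 libraries and scaled by depth, 44 counts against 9 made a ratio of 5.95 (exact 95% interval 2.87 to 13.9, counting error only). IN10018 held 5, 4 and 5 counts, a ratio of 1.75 (0.705 to 4.58), and no library of the other 5 compounds held more than 5. *Gdf15* passed the filter on low counts through the PROTAC FAK degrader 1 libraries, in which it was high.

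Per kilobase of exon with DMSO, *Bax* (87.8 CPM per kb), *Trp53* (73.3) and *Phlda3* (61.4) were the most abundant of the 10, *Ccng1* (19.3) and *Mdm2* (16.3) were intermediate, and *Cdkn1a* (4.50), *Bbc3* (2.94), *Eda2r* (1.07), *Trp53inp1* (0.420) and *Gdf15* (0.067) were low. Of the 10, 8 were past the threshold of an edgeR adjusted P of 0.05 and higher with PROTAC FAK degrader 1 and 1 was lower, where 66.8% of all 16070 genes were past it. The corresponding numbers, higher and lower, were 0 and 4 with defactinib (22.4% of all genes), 3 and 2 with VS-4718 (39.2%), 0 and 2 with GSK2256098 (12.5%), 3 and 0 with IN10018 (13.3%), 2 and 4 with GSK215 (54.7%) and 3 and 4 with BSJ-04-0146 (54.6%). Since the 10 genes were chosen with these levels known, nothing is read from these numbers.

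**Figure D2:**
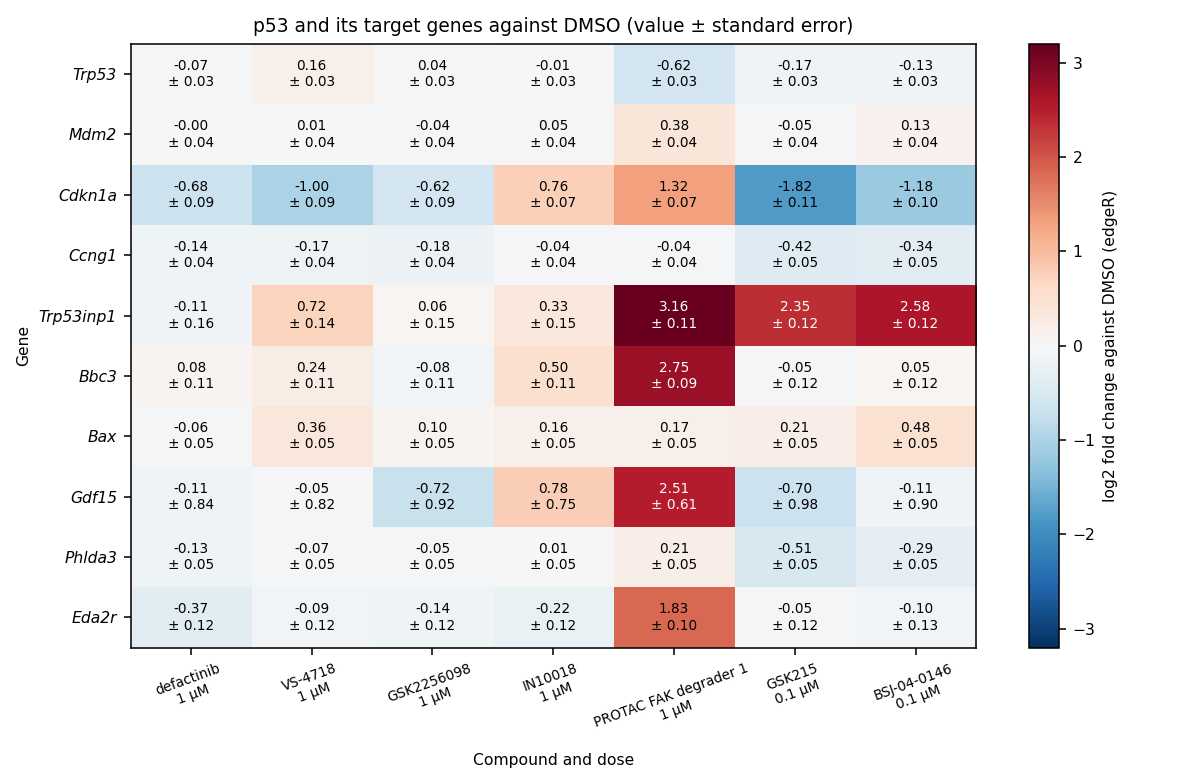
Log2 fold change against DMSO (color and number, ± standard error, edgeR) of the 10 genes (rows) with each compound at its dose (columns). In the column of PROTAC FAK degrader 1, *Trp53inp1*, *Bbc3*, *Gdf15* and *Eda2r* have values above 1.8 beside -0.62 for *Trp53*, and the row of *Cdkn1a* runs from -1.82 to 1.32.

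The compounds were set against one another at matched dose, in 10 pairs of the 5 given at 1 µM and 1 pair at 0.1 µM, again as a description for the 10 genes. PROTAC FAK degrader 1 and defactinib, both at 1 µM, differed by a log2 value of 3.28 for *Trp53inp1* (95% interval 3.05 to 3.50), 2.67 for *Bbc3* (2.49 to 2.85), 2.20 for *Eda2r* (1.99 to 2.42) and 2.00 for *Cdkn1a* (1.84 to 2.16), all higher with the degrader, and by -0.55 for *Trp53* (-0.62 to -0.48). For *Cdkn1a*, IN10018 lay 1.44 above defactinib (1.28 to 1.61), 1.39 above GSK2256098 (1.22 to 1.55) and 1.77 above VS-4718 (1.60 to 1.94). PROTAC FAK degrader 1 lay 0.56 above IN10018 (0.42 to 0.70). GSK2256098 and defactinib overlapped for *Cdkn1a*, with a difference of 0.06 and an interval of -0.13 to 0.25. At 0.1 µM, BSJ-04-0146 lay above GSK215 by 0.64 for *Cdkn1a* (0.38 to 0.90), 0.27 for *Bax* (0.16 to 0.38), 0.22 for *Phlda3* (0.12 to 0.33) and 0.18 for *Mdm2* (0.10 to 0.26). Their libraries overlapped for *Trp53* (0.04, -0.03 to 0.11), *Bbc3* (0.10, -0.15 to 0.35) and *Eda2r* (-0.05, -0.32 to 0.22). GSK215 and BSJ-04-0146 were given at a lower dose than the other 5 compounds, so that their levels stand beside those at 1 µM without a difference being taken.

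A wider list of 55 known p53 targets, none of them among the 10, was then tested against DMSO, and 50 passed the filter. *Pmaip1*, which encodes the death protein Noxa, had 0 counts in all 24 libraries, which allows up to 0.113 CPM in the deepest and 0.197 CPM in the shallowest library (3 counts each). *Perp*, *Rprm*, *Trp73* and *Ddit4l* held at most 2 counts in any library. With PROTAC FAK degrader 1, 28 of the 50 rose and 14 fell, 56.0% and 28.0%, against 34.1% and 32.7% of all genes, and their median log2 fold change was 0.30 beside 0.00 for all genes. In the other comparisons the median of the list lay between -0.07 and 0.03. The numbers that rose and fell were 10 and 9 with VS-4718 (20.4% and 18.9% of all genes), 4 and 3 with IN10018 (6.44% and 6.85%), 14 and 19 with GSK215 (27.4% and 27.2%) and 15 and 16 with BSJ-04-0146 (27.7% and 26.9%). With totals alone these splits turned to 20 and 11 for GSK215 and 19 and 14 for BSJ-04-0146. With defactinib 3 rose and 11 fell (11.4% and 11.0% of all genes), numbers that dropped to 1 without DMSO replicate 1 and to 6 without defactinib replicate 3. With GSK2256098 5 rose and 8 fell (6.36% and 6.09%), or 5 and 5 with totals alone, and 1 to 2 and 4 to 7 when any 1 of its 6 libraries was left out.

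By role, 10 of the 11 tested arrest and feedback genes rose with PROTAC FAK degrader 1 and none fell, where 34.1% of all genes rose and 32.7% fell. *Gadd45a*, which encodes a stress protein of growth arrest and DNA repair, rose from 16.9 to 139 CPM (log2 fold change 3.04 ± 0.07, adjusted P = 5.4e-32). *Sesn2*, a restraint on the kinase complex mTORC1, rose by 1.22 ± 0.05 (adjusted P = 3.3e-22). Smaller rises were those of *Btg2* (0.56 ± 0.09), an antiproliferative factor, *Sesn1* (0.39 ± 0.07), *Ppm1d* (0.28 ± 0.07), the phosphatase Wip1 that shuts off p53 signaling, and *Zmat3* (0.28 ± 0.04), an RNA-binding protein. Of the cell death genes, 3 of 10 rose and 4 fell, close to the shares over all genes. Among these *Pidd1*, the scaffold of the caspase-2 platform, fell by 0.94 ± 0.08 and *Aen*, an apoptosis-enhancing nuclease, fell by 0.81 ± 0.04. All 7 DNA repair genes passed the test (66.8% of all genes did), 5 higher and 2 lower, and *Pcna*, the sliding clamp of DNA polymerases, fell from 482 to 184 CPM (-1.39 ± 0.03, adjusted P = 1.7e-31). The hydrolase gene *Abhd4* rose by 1.40 ± 0.05 (adjusted P = 2.9e-26). Of the 10 metabolism and redox genes 5 rose and 4 fell, and of the 12 tested genes with other roles 5 rose and 4 fell.

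**Figure D3:**
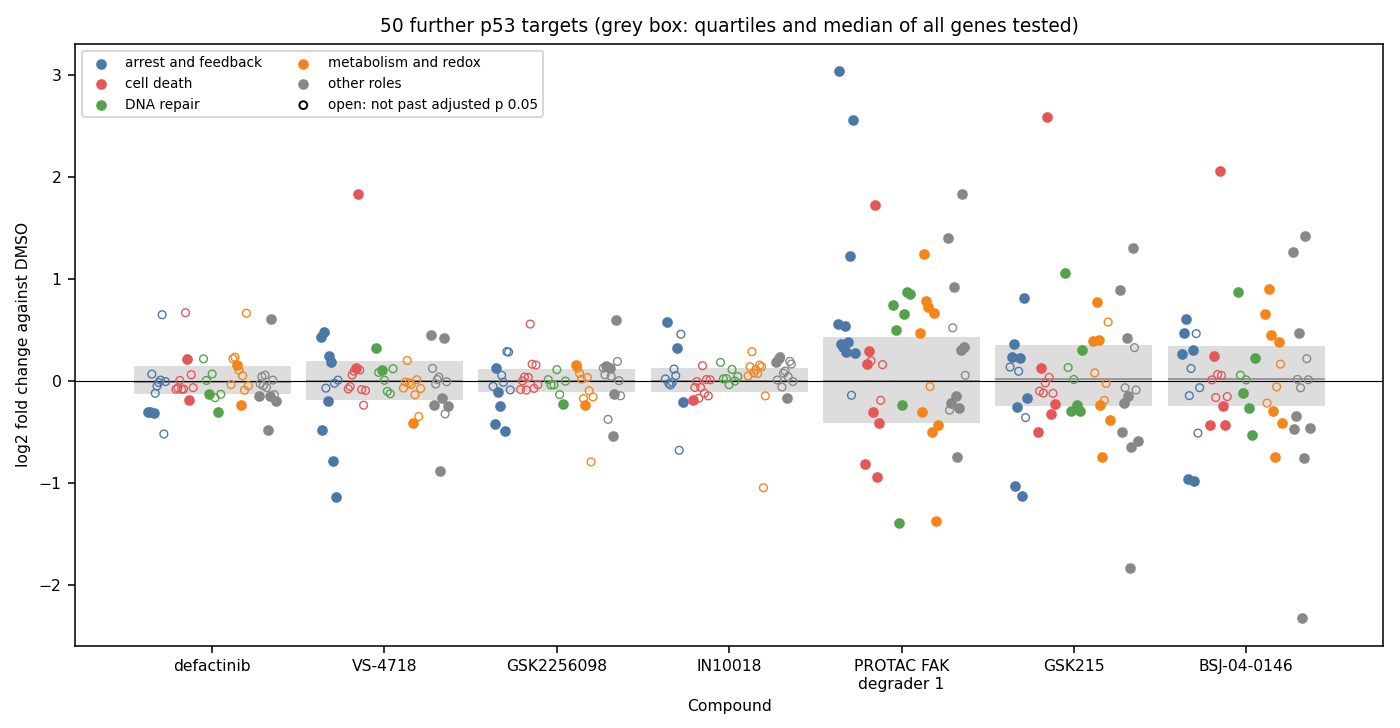
Log2 fold change against DMSO of the 50 tested further p53 targets (dots, colored by role, open where the adjusted P was not under 0.05) for each compound; grey boxes span the middle 50% of all 16070 genes and grey lines their median. With PROTAC FAK degrader 1 the arrest and feedback genes reach 3.04 (*Gadd45a*) and the DNA repair genes reach down to -1.39 (*Pcna*).

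Several of these targets moved in unlike directions among the compounds. *Sesn2* fell with VS-4718 (-0.78 ± 0.06, adjusted P = 3.6e-13), GSK2256098 (-0.49 ± 0.06), GSK215 (-1.13 ± 0.07, adjusted P = 4.4e-17) and BSJ-04-0146 (-0.98 ± 0.07) and rose with IN10018 (0.33 ± 0.06, adjusted P = 9.0e-05), while its value with defactinib was 0.01 ± 0.06. *Gadd45a* rose with IN10018 (0.58 ± 0.08, adjusted P = 1.6e-06) and BSJ-04-0146 (0.48 ± 0.08) and fell with VS-4718 (-0.48 ± 0.09) and GSK2256098 (-0.42 ± 0.09). *Gadd45a* also fell with defactinib (-0.30 ± 0.09), a call lost without defactinib replicate 1 (-0.20), and rose with GSK215 (0.23 ± 0.08), a call lost without DMSO replicate 3 (0.22) or GSK215 replicate 1 (0.19). With IN10018 *Zmat3* fell (-0.20 ± 0.04, adjusted P = 0.00089), as did *Aen* (-0.18 ± 0.04, adjusted P = 0.0012). At 1 µM, *Gadd45a* was higher with PROTAC FAK degrader 1 than with defactinib by 3.34 ± 0.07 (adjusted P over the 11 pairs = 4.7e-35) and higher with IN10018 than with defactinib by 0.88 ± 0.08 (adjusted P = 6.5e-13). GSK2256098 and defactinib did not differ past the threshold for *Gadd45a* (-0.12, 95% interval -0.30 to 0.07). *Sulf2*, a heparan sulfate sulfatase, rose with GSK215 and BSJ-04-0146 (1.31 ± 0.04 and 1.42 ± 0.04), and so did *Abhd4* (0.89 ± 0.05 and 1.27 ± 0.05) and the repair gene *Ddb2* (1.06 ± 0.10 and 0.88 ± 0.11). With defactinib, VS-4718 and GSK2256098 *Sulf2* also rose (0.61 ± 0.04, 0.42 ± 0.04 and 0.60 ± 0.04), and with IN10018 its value was 0.04 ± 0.04, not past the threshold. *Ier5*, an immediate early response gene, rose with VS-4718 (0.49 ± 0.04) and BSJ-04-0146 (0.61 ± 0.04), and the polo-like kinase gene *Plk2* fell with GSK215 (-1.03 ± 0.04) and BSJ-04-0146 (-0.96 ± 0.04). The death receptor gene *Fas* was at only 0.100 CPM with DMSO and 0.609 CPM with GSK215 (2.59 ± 0.66). *Fas* was also past the threshold with VS-4718, PROTAC FAK degrader 1 and BSJ-04-0146, calls lost without DMSO replicate 2 (1.21, 1.11 and 1.44). It passed the filter on low counts through treated libraries in which it was higher, so nothing is read from its calls.

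Between compounds at 1 µM, 46 of the 50 targets differed between PROTAC FAK degrader 1 and defactinib (68.9% of all genes differed), 41 between it and VS-4718 (68.9%), 47 between it and GSK2256098 (67.6%) and 41 between it and IN10018 (63.5%). Among the kinase inhibitors the numbers were lower. They were 24 for IN10018 against defactinib (34.5% of all genes), 22 for IN10018 against VS-4718 (40.9%), 15 for IN10018 against GSK2256098 (20.9%), 16 for VS-4718 against defactinib (34.0%), 17 for GSK2256098 against VS-4718 (27.1%) and 7 for GSK2256098 against defactinib (11.5%), the last falling to 4 without GSK2256098 replicate 2. At 0.1 µM, 9 of the 50 differed between BSJ-04-0146 and GSK215 (22.5%).

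Of 19 regulators and partners of p53, 18 were tested, and the numbers past the threshold were 15 with PROTAC FAK degrader 1 (66.8% of all genes), 14 with GSK215 (54.7%), 11 with VS-4718 (39.2%) and 9 with BSJ-04-0146 (54.6%). They were 6 with defactinib (22.4%), 4 with IN10018 (13.3%) and 2 with GSK2256098 (12.5%), the first falling to 2 without DMSO replicate 1 or 3 or defactinib replicate 3, the second to between 1 and 2 without DMSO replicate 1 or 2 or IN10018 replicate 1 or 3, and the last to 1 without any 1 library. *Cdkn2a*, whose locus encodes both p16 and the Mdm2 inhibitor Arf, was abundant with DMSO (202 CPM) and rose with BSJ-04-0146 (0.54 ± 0.04), PROTAC FAK degrader 1 (0.47 ± 0.04), GSK215 (0.31 ± 0.04) and VS-4718 (0.29 ± 0.04). Gene counts do not tell its 2 products apart. *Mdm4*, the relative of Mdm2 that masks the activation domain of p53, rose with PROTAC FAK degrader 1 (0.21 ± 0.04, adjusted P = 6.8e-06) and GSK215 (0.17 ± 0.04, adjusted P = 0.00025), and fell with VS-4718 (-0.13 ± 0.04, adjusted P = 0.0088), a call lost with totals alone (-0.09). *Mdm4* rose with defactinib by 0.11 ± 0.04 (adjusted P = 0.045), a call lost without any 1 library. *Wrap53*, which lies head to head with *Trp53*, fell with PROTAC FAK degrader 1 (-0.64 ± 0.06, adjusted P = 3.0e-12) and with GSK215 and BSJ-04-0146 (-0.42 ± 0.06 and -0.43 ± 0.06). The checkpoint kinase gene *Chek1* fell with the 3 PROTACs and VS-4718 by 0.35 to 0.49, and *Atm*, the kinase that senses double-strand breaks, fell with PROTAC FAK degrader 1 (-0.48 ± 0.05). For *Trp53bp1*, a repair protein that binds p53, the values in the 7 comparisons lay between -0.04 and 0.07. With totals alone *Trp53bp1* was past the threshold with GSK215 (0.19), BSJ-04-0146 (0.12), VS-4718 (0.10) and PROTAC FAK degrader 1 (0.09), and with GSK215 also without GSK215 replicate 1 (0.10).

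Downstream of p21, p53 is known to lower a set of cell cycle genes through the DREAM repressor complex, and 25 such genes were tested beside *Cdkn1a*. With PROTAC FAK degrader 1, where *Cdkn1a* was higher, 23 fell and 2 rose (32.7% of all genes fell), with a median of -0.55. With GSK215 and BSJ-04-0146, where *Cdkn1a* was lower, 24 fell and 1 rose in each (27.2% and 26.9% of all genes fell), with medians of -0.30 and -0.27. With VS-4718 16 fell and none rose (18.9%, median -0.15) and with defactinib 8 fell and 1 rose (11.0%, median -0.05), again beside a lower *Cdkn1a*. With IN10018, where *Cdkn1a* was higher, 3 fell and 2 rose (6.85% of all genes fell), and with GSK2256098 3 fell (6.09%), so that 5 and 3 passed the test. In fits on the 6 libraries of each comparison alone these became 9 and 7. With IN10018 the number was 3 without DMSO replicate 2 or IN10018 replicate 1 or 3, and with GSK2256098 it was 1 without DMSO replicate 1 or 2 and 2 without any other library. *Mki67*, the proliferation marker Ki-67, fell by 0.91 ± 0.04 with PROTAC FAK degrader 1, 0.45 ± 0.04 with BSJ-04-0146, 0.23 ± 0.04 with IN10018 and 0.19 ± 0.04 with VS-4718. *Mki67* also fell with GSK215 (-0.19 ± 0.04, but -0.07 and not past the threshold with totals alone) and rose with defactinib (0.11 ± 0.04), a call lost without DMSO replicate 3 or defactinib replicate 1 or 3 (0.09 to 0.10). *Foxm1*, the factor that drives mitotic genes, fell by 0.71 ± 0.03, 0.31 ± 0.03 and 0.33 ± 0.03 with PROTAC FAK degrader 1, GSK215 and BSJ-04-0146, and *Ccnb1* (cyclin B1) by 0.34 ± 0.03, 0.39 ± 0.03 and 0.27 ± 0.03.

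*Cdkn1a*, *Bbc3* and *Gdf15* are also known to respond to ATF4 and CHOP, the factors of the integrated stress response, and 12 targets of these factors were therefore measured beside them. With PROTAC FAK degrader 1, 11 rose and none fell (34.1% of all genes rose), with a median of 1.42, and with IN10018 10 rose and none fell (6.44%), with a median of 0.39. All 12 fell with VS-4718 (median -1.13), GSK215 (-1.14), BSJ-04-0146 (-1.01) and GSK2256098 (-0.62), where 18.9%, 27.2%, 26.9% and 6.09% of all genes fell. With defactinib 8 fell and 4 rose (11.0% and 11.4% of all genes, median -0.19). *Ddit3*, which encodes CHOP, rose from 19.7 to 237 CPM with PROTAC FAK degrader 1 (3.59 ± 0.05, adjusted P = 5.9e-37) and to 29.3 CPM with IN10018 (0.58 ± 0.06) and fell with VS-4718 (-1.20 ± 0.08), GSK215 (-0.87 ± 0.08), BSJ-04-0146 (-0.70 ± 0.08), GSK2256098 (-0.56 ± 0.07) and defactinib (-0.55 ± 0.07). *Trib3*, a pseudokinase induced by CHOP, rose by 2.79 ± 0.05 with PROTAC FAK degrader 1 and fell by 2.67 ± 0.08 with GSK215. The 7 comparisons share the DMSO libraries. The part of these factors in the levels of *Cdkn1a*, *Bbc3*, *Gdf15* and the further p53 targets, *Gadd45a* and *Sesn2* included, was not tested.

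**Figure D4:**
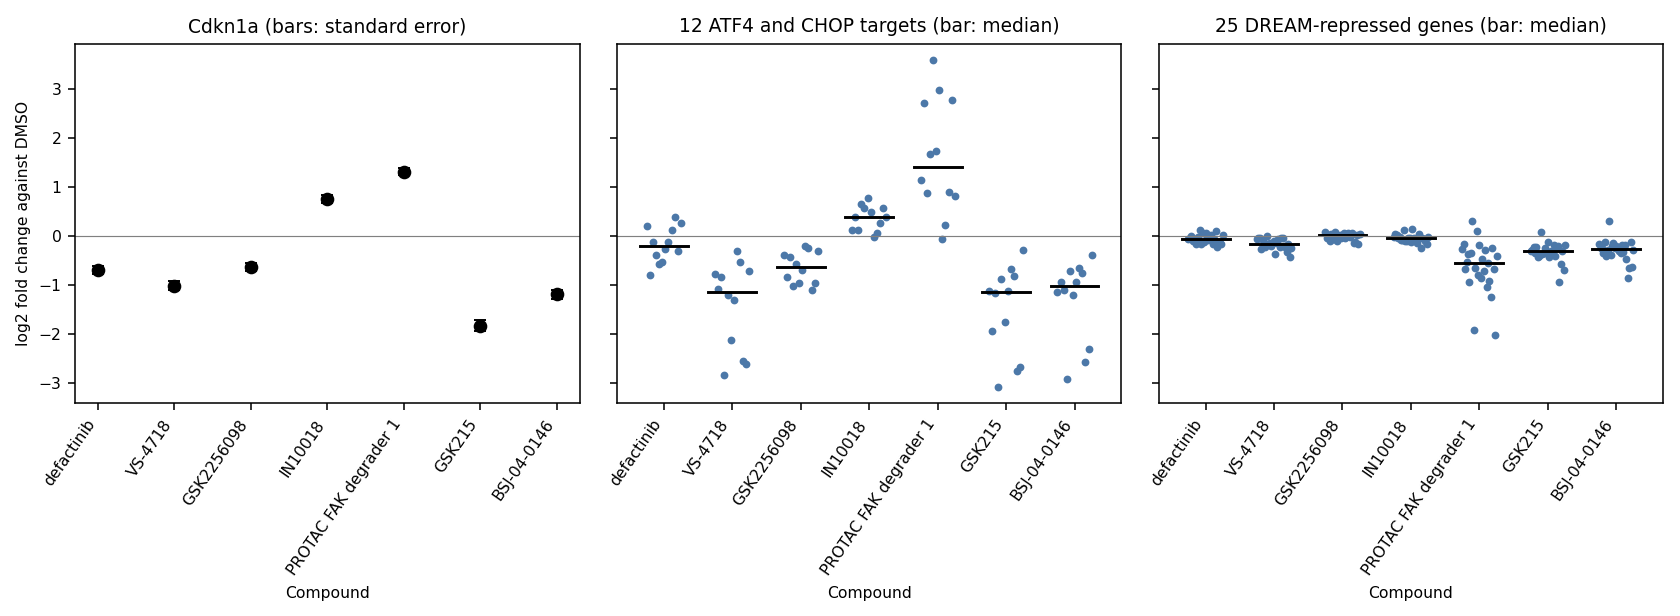
Log2 fold change against DMSO of *Cdkn1a* (left, ± standard error), of 12 ATF4 and CHOP targets (middle) and of 25 genes repressed through DREAM (right) with each compound; dots are genes and bars list medians. *Cdkn1a* is above 0 with PROTAC FAK degrader 1 and IN10018, and the DREAM median is lowest, at -0.55, with PROTAC FAK degrader 1 and -0.30 with GSK215.

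The 10 genes did not follow one pattern over the 8 group means of log2(CPM + 4). *Bbc3* and *Eda2r* (Pearson r = 0.97) and *Ccng1* and *Phlda3* (0.91) ran close together, *Trp53* ran against *Eda2r* (-0.89) and *Mdm2* (-0.85), and *Cdkn1a* was near 0 with *Trp53inp1* (0.11). These values describe 8 means that share depth and, for several pairs, 1 group that stands apart, and they carry no test. Among 9820 genes with a mean of at least 5 CPM, the closest to *Trp53* were *Jpt2*, *Rcc2* and *Sart3* (r = 0.998 to 0.999), and the closest to *Mdm2* were *Vps35*, *Ss18l2* and *Zfand2b* (0.989 to 0.992). The closest to *Cdkn1a* were *Grhpr*, *Gtf2e2* and *Trappc5* (0.990 to 0.994). For *Gdf15*, with few counts, they were *Ghitm*, *Bbc3* and *Arhgap39* (0.996 to 0.997).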

How the data were processed

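Per the submitters' processing notes and the labels, poly(A) RNA libraries (NEBNext Ultra II) were trimmed with Trimmomatic 0.36, aligned to GRCm38 with STAR 2.5.2b and counted per gene with featureCounts (Subread 1.5.2). The annotation release and the strand setting are not given in the sources used here. The authors deposited raw counts of 49315 genes in 24 libraries, and 49056 identifiers were found in GENCODE M21. Counts were scaled with TMM, filtered by group (filterByExpr, 16070 genes kept) and fitted with edgeR 4.0.16 (quasi-likelihood, 1 coefficient per group, all 24 libraries, 16 residual degrees of freedom, two-sided, Benjamini-Hochberg over all genes tested, threshold 0.05) in R 4.3.3. The study's methods name log2(CPM + 4) and no count model. The procedure was tested on simulated data in which a small set of genes was changed, evenly up and down, in the defactinib group alone. That setting does not address the choice of scaling where most genes differ. The 10 genes, the lists and the naming rule were chosen with earlier results of these data known. The rule named the 10 genes, a set of well-known targets and regulators, the 2 largest rises and falls among further targets per compound (mean of at least 5 CPM), and the 3 genes closest in pattern. One gene that the rule names is not reported here. Alternatives were library totals, DESeq2 1.42.0, limma 3.58.1 on log2(CPM + 4), no filter, a replicate block, fits on 6 libraries and leaving out each library in turn. A gene with few counts, such as *Gdf15*, carries the error its interval gives.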

Additional observations from a re-analysis of the deposited data

How the results depend on the processing

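No result past its threshold changed direction under an alternative setting, while some small values near 0 did, such as *Mdm2* with GSK215. Among the values of the 10 genes under an alternative, 303 moved by more than the spread between replicates and 1844 did not. On log2(CPM + 4), the scale the study names, whose offset draws low genes towards 0, *Trp53inp1* read 1.42 with GSK215, 1.60 with BSJ-04-0146, 0.34 with VS-4718 and 2.08 with PROTAC FAK degrader 1, *Cdkn1a* -1.24 with GSK215 and 1.14 with PROTAC FAK degrader 1, and *Gdf15* 0.20 with PROTAC FAK degrader 1. Library totals alone shifted the median over all tested genes to a log2 value of 0.14 with GSK215, 0.13 with BSJ-04-0146 and 0.09 with PROTAC FAK degrader 1, and gave 11 further targets that fell with GSK215 (19 with TMM) and 5 with GSK2256098 (8 with TMM). Without the filter on low counts 2 further targets rose with GSK2256098 (5 with it). Fits on 6 libraries gave 7 DREAM genes with GSK2256098 (3 in the fit on all libraries), and 9 DREAM genes and 7 regulators with IN10018 (5 and 4). Leaving out 1 library gave 1 to 4 targets that rose and 6 to 10 that fell with defactinib, beside 2 to 5 regulators. With GSK2256098 it gave 1 to 2 that rose, 4 to 7 that fell, 1 regulator and 1 to 2 DREAM genes, with IN10018 1 to 4 regulators and 3 to 6 DREAM genes, and for GSK2256098 against defactinib 4 to 6 targets. The causes were not tested. Of 304 single-gene results outside the 10 genes, 57 changed side of the threshold under at least 1 setting. The numbers of the replicates did not pair the libraries, since over 21 same-numbered pairs the correlation of deviations ran from -0.18 to 0.15 and exceeded 0.1 in 1. A replicate block gave 5 and 7 targets higher and lower with GSK2256098 and 29 and 14 with PROTAC FAK degrader 1, and left the other splits against DMSO as they were. Low counts limit *Gdf15*, as its interval shows.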
